A study of Mus musculus with 3 samples.

Results

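Effector and exhaustion programs of CD8+ T cells are run by a small set of transcription factors, and 9 of their genes were followed in tumor-infiltrating T cells: *Tbx21*, *Prdm1*, *Id2*, *Zeb2*, *Tox*, *Tox2*, *Bhlhe40*, *Runx3* and *Ikzf2*. They were chosen by symbol among the 33696 genes of the deposited matrices, and all 9 were present. The cells were live Thy1.1+CD8+ pmel T cells, which carry a transgenic receptor for the melanoma antigen gp100, sorted from subcutaneous B16F10 melanomas. They were measured by droplet single-cell RNA sequencing in 3 libraries, 1 for each treatment: sIL-2, the IL-2/21-Trikine, or sIL-2 + IL-21. Levels are UMIs, where a UMI marks 1 captured RNA molecule, summed over the cells of a library and given per 1000000 UMIs (CPM).

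In all 3 groups, Thy1.1+ pmel splenocytes were stimulated with gp100 peptide and preconditioned with 10 nM of the cytokine that names the group. They were transferred on day 5 after tumor injection into Thy1.2+ C57BL/6 mice, 5 to 6 weeks old at purchase, that had been irradiated with 6 Gy. sIL-2 is an IL-2 engineered for high affinity to the IL-2 receptor beta chain, and the IL-2/21-Trikine joins it to a binder of the IL-21 receptor. Each mouse received 4 doses of 2.5 μg spaced by 48 h, and tumors were harvested on day 18. Mice of the sIL-2 + IL-21 group were dosed with sIL-2 alone, so that this group and the sIL-2 group differed in preconditioning only, whereas the Trikine group differed in preconditioning and dosing. As a model this is limited to 1 T cell receptor specificity in hosts lymphodepleted by irradiation, and the number of mice behind each library was not given in the sources used here.

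As background, IL-2 signals mainly through STAT5 and IL-21 mainly through STAT3. T-bet (*Tbx21*), Blimp-1 (*Prdm1*), ID2 and ZEB2 are known for driving CD8+ T cells toward effector and terminal effector states, RUNX3 for the cytotoxic program and tissue residency, and TOX for sustaining exhausted T cells under chronic antigen. TCF-1 (*Tcf7*) marks cells that keep self-renewal, while granzymes mark cytotoxic differentiation. BHLHE40 is known for cytokine production and mitochondrial fitness, and Helios (*Ikzf2*) for regulatory and innate-like T cells.

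After quality control, 7760 cells in the sIL-2 library, 13299 with IL-2/21-Trikine and 9798 in the sIL-2 + IL-21 library remained, with 130200802, 166772854 and 168041089 UMIs in that order. Between 18 and 41 cell barcodes were shared by each pair of libraries. Markers were those of CD8+ T cells: 8 T cell genes summed to 4274 to 5255 CPM, 12 myeloid genes to 20.9 to 37.1 CPM, 6 melanoma genes to 2.24 to 8.87 CPM, 3 NK genes to 9.30 to 17.3 CPM and *Cd4* with *Foxp3* to 0.468 to 1.70 CPM. The 3 hemoglobin genes reached 53.3 CPM with sIL-2 and at most 0.357 CPM in the other libraries. Since each condition has 1 library, conditions could not be tested against each other, intervals in brackets are at 95% and cover counting error only, and the treatment cannot be told apart from the mice and the preparation behind a library. Intervals of levels and of their ratios take every UMI as independent. They leave out the spread between cells, so intervals that lie apart do not show a difference beyond it.

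Detection was sufficient for 8 of the 9 genes, which does not show the role of a gene in these cells. *Tox2* (ENSMUSG00000074607), a relative of *Tox*, had 2 UMIs in the sIL-2 library, 1 with IL-2/21-Trikine and 1 in the sIL-2 + IL-21 library. These counts allow at most 0.0555, 0.0334 and 0.0332 CPM in that order, too few to compare, and *Tox2* is not carried further. The 8 other genes reached 10 CPM in at least 1 library.

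Short promoter windows are shown first, because the cytokines differ in STAT signaling and several of the 9 factors are DNA-binding proteins with known short motifs. RefSeq promoters of build GRCm38.p6, from 250 bases before to 50 after a start site, were given for 6 of the 9 genes (*Tbx21*, *Prdm1*, *Id2*, *Zeb2*, *Runx3* and *Tox2*). Both strands were searched for the STAT motif TTCNNNGAA, the RUNX motif TGTGGTT, the ZEB motif CAGGTG, the T-box motif TCACACC and the BHLHE40 motif CACGTG. They occur in 8.30%, 5.27%, 20.2%, 3.98% and 7.15% of the 32851 promoters. Capitals mark the motif, or its reverse complement, in the direction of the gene.
*Zeb2*, STAT motif, chr2:45113408-45113436, minus strand, 147 bases before 1 start site and 173 before another: agttctccagTTCTGTGAAtggtgtgcac
*Runx3*, RUNX motif, chr4:135120500-135120526, plus strand, 135 bases before the start site: ctggtccctcAACCACAgaaccacaag
*Runx3*, RUNX motif, overlapping the previous window, chr4:135120508-135120534, plus strand, 127 bases before the start site: tcaaccacagAACCACAaggccaggcc
*Tbx21*, ZEB motif, chr11:97115512-97115537, minus strand, 196 bases before the start site: ttcagagtttCAGGTGgcaggttgac
*Prdm1*, ZEB motif, chr10:44458820-44458845, minus strand, 87 bases before the start site: ctgggctggcCAGGTGcggccacgcc
Of the 14 promoters of these 6 genes, 4 held the ZEB motif (28.6%, in 4 genes), 2 overlapping *Zeb2* promoters the STAT motif (14.3%) and 1 *Runx3* promoter the RUNX motif (7.14%), and 0 held the T-box or BHLHE40 motif. The start sites of the *Prdm1* window and of the *Zeb2* window lie inside the annotated genes and not at their 5' ends. A match of letters is not a binding site, and none of these windows was assayed.

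The comparison of the 3 libraries asked how cytokine preconditioning and dosing left these factors in the tumor. *Tox* was highest with IL-2/21-Trikine and lowest with sIL-2 + IL-21, and *Prdm1* was lowest with IL-2/21-Trikine. *Runx3* was highest and *Zeb2* lowest with sIL-2 + IL-21, while *Ikzf2* was highest with IL-2/21-Trikine. *Tbx21*, *Id2* and *Bhlhe40* moved by less than 0.5 on the log2 scale in each pair. For IL-2/21-Trikine over sIL-2, *Tbx21* reached -0.55 and *Bhlhe40* -0.50 under other ways of scaling and selecting cells.

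*Prdm1* (ENSMUSG00000038151, chr10:44437177-44528501, minus strand, GRCm38) encodes Blimp-1, a repressor of memory genes. It was at 18.2 CPM [17.5, 19.0] with sIL-2, 7.95 CPM [7.53, 8.39] with IL-2/21-Trikine and 16.8 CPM [16.2, 17.4] in the sIL-2 + IL-21 library. The Trikine library alone was low. Over sIL-2 its log2 ratio was -1.20 [-1.30, -1.10], and relative to the sIL-2 + IL-21 library it was -1.08 [-1.17, -0.98]. The sIL-2 library itself had a ratio of 0.12 [0.04, 0.20] relative to sIL-2 + IL-21. Over sIL-2, the ratio was between -1.38 and -1.06 in each of Tcf7-positive, Tcf7-negative, granzyme-positive, granzyme-negative, cycling and other cells, classes that are defined further on, so the low level was not limited to one of them.

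*Tox* (ENSMUSG00000041272, chr4:6686353-6991557, minus strand, GRCm38) was at 33.1 CPM [32.2, 34.1] with sIL-2, 46.7 CPM [45.6, 47.7] with IL-2/21-Trikine and 13.1 CPM [12.6, 13.7] in the sIL-2 + IL-21 library. The 3 intervals did not overlap. IL-2/21-Trikine was 3.56-fold above sIL-2 + IL-21, a log2 ratio of 1.83 [1.76, 1.90], and sIL-2 was 2.53-fold above it, a log2 ratio of 1.34 [1.27, 1.41]. Standardized to the same class makeup, these log2 ratios were 1.23 and 0.84. Over sIL-2, the Trikine ratio was 0.49 [0.44, 0.55], just inside the limit of 0.5 used to count genes. It was between 0.39 and 0.69 over 10 other ways of scaling and selecting cells. Against sIL-2 + IL-21, the log2 ratio of the Trikine library was 0.82 [0.60, 1.06] in Tcf7-positive cells and 2.29 [2.18, 2.40] in granzyme-positive cells, intervals that were apart.

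*Zeb2* (ENSMUSG00000026872, chr2:44983632-45117395, minus strand, GRCm38), which acts with T-bet in terminal effector cells, was at 157 CPM [155, 159] with sIL-2, 123 CPM [121, 124] with IL-2/21-Trikine and 90.8 CPM [89.3, 92.2] in the sIL-2 + IL-21 library. The 3 intervals were apart, with sIL-2 highest. The sIL-2 library stood 0.79 [0.76, 0.82] above sIL-2 + IL-21 on the log2 scale, and IL-2/21-Trikine 0.43 [0.40, 0.46] above it. With libraries standardized to the same makeup of Tcf7, granzyme and cycling classes these values were 0.43 and 0.072, so the first no longer reached 0.5, and in granzyme-negative cells the Trikine ratio was 0.058 [0.017, 0.10]. Myeloid genes, which were at 37.1, 32.8 and 20.9 CPM in that order with all 12 detected in each library, moved the same way, and *Zeb2* is also a myeloid gene. Without the barcodes rich in myeloid or melanoma markers, the log2 ratios were 0.79 and 0.42. Relative to sIL-2, the log2 ratio of *Zeb2* with IL-2/21-Trikine was -0.52 [-0.56, -0.49] in granzyme-negative cells and -0.03 [-0.09, 0.03] in granzyme-positive cells.

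*Runx3* (ENSMUSG00000070691, chr4:135120652-135177990, plus strand, GRCm38) was at 182 CPM [180, 184] with sIL-2, 145 CPM [143, 147] with IL-2/21-Trikine and 224 CPM [222, 227] in the sIL-2 + IL-21 library. Relative to sIL-2 + IL-21, the log2 ratio of the Trikine library was -0.63 [-0.65, -0.61], but -0.41 with the same class makeup and -0.45 with each cell weighted equally, both inside 0.5. *Ikzf2* (ENSMUSG00000025997, chr1:69531214-69687245, minus strand, GRCm38) was at 122 CPM [121, 124], 163 CPM [161, 164] and 111 CPM [110, 113] in the same order. Its log2 ratio was 0.55 [0.52, 0.58] for IL-2/21-Trikine over sIL-2 + IL-21 and 0.41 [0.38, 0.44] over sIL-2. Without the 10% of cells with most UMIs the first of these was 0.42, inside 0.5. In the sIL-2 library relative to sIL-2 + IL-21 it was 0.14, and between -0.18 and 0.32 over 10 other ways of scaling and selecting cells, so no direction is given for that pair.

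*Tbx21* (ENSMUSG00000001444, chr11:97098071-97115331, minus strand, GRCm38) was at 77.4 CPM with sIL-2, 56.0 CPM with IL-2/21-Trikine and 69.5 CPM in the sIL-2 + IL-21 library. *Id2* (ENSMUSG00000020644, chr12:25093799-25097140, minus strand, GRCm38), an inhibitor of E proteins, was at 631, 482 and 614 CPM in that order. *Bhlhe40* (ENSMUSG00000030103, chr6:108660629-108666925, plus strand, GRCm38) was at 478, 348 and 355 CPM. The Trikine library was the lowest of the 3 for each of these genes, with log2 ratios over sIL-2 of -0.47, -0.39 and -0.46. For *Bhlhe40* it was only -0.03 relative to the sIL-2 + IL-21 library. The 8 T cell marker genes also had a negative median log2 ratio, -0.23, for IL-2/21-Trikine over sIL-2.

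**Figure D1:**
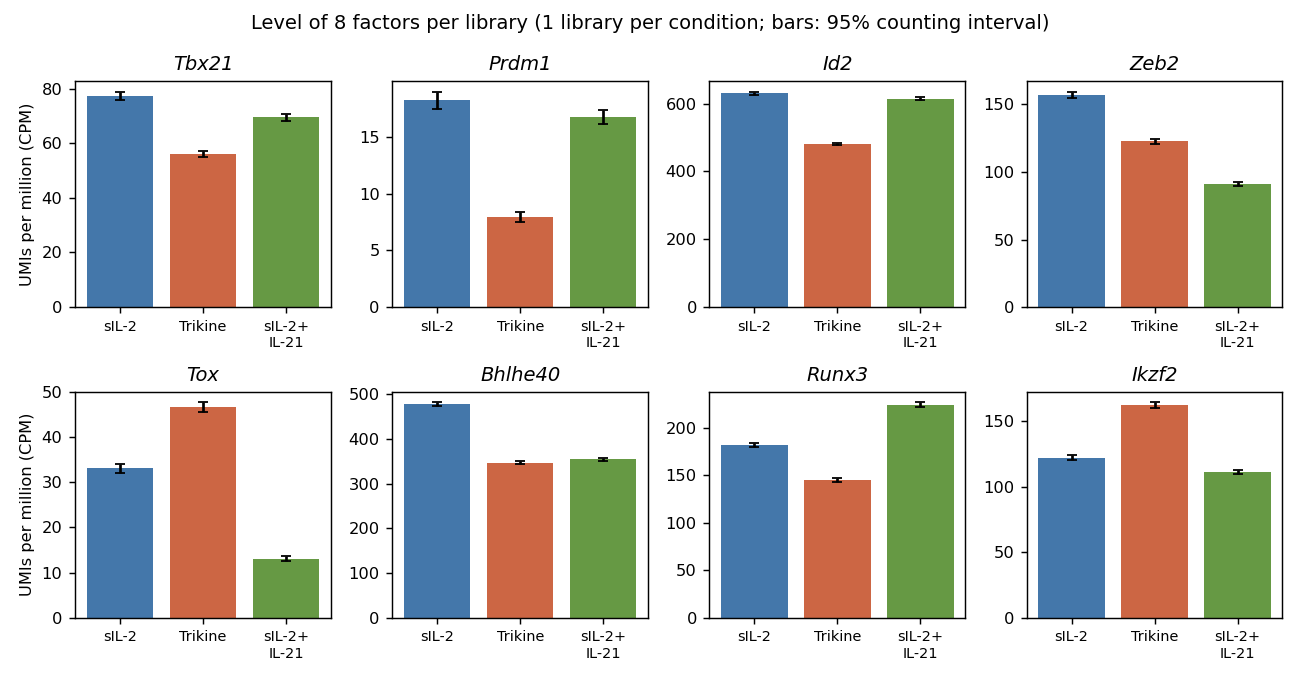
Level of 8 factors in each library, in CPM (vertical axis, from 0, a separate scale for each gene); bars are 1 library each and error bars the exact Poisson interval at 95%. *Tox* stands at 13.1 CPM with sIL-2 + IL-21 against 46.7 CPM with IL-2/21-Trikine, and *Prdm1* at 7.95 CPM with IL-2/21-Trikine against 18.2 CPM with sIL-2.

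A gene was counted between libraries at an absolute log2 ratio of at least 0.5 with 10 CPM in either library and a counting interval that left out 0. For IL-2/21-Trikine over sIL-2, 1 of the 8 factors was lower (*Prdm1*) and 0 higher, where 5.76% of 7548 genes were lower and 2.72% higher. For IL-2/21-Trikine over sIL-2 + IL-21, *Tox* and *Ikzf2* were higher and *Prdm1* and *Runx3* lower, 2 in each direction, beside 3.36% and 3.32% of 7489 genes. In the sIL-2 library relative to sIL-2 + IL-21, 2 factors were higher (*Tox* and *Zeb2*) and 0 lower, beside 10.3% and 5.65% of 7596 genes. With TMM-scaled totals, 6.56% of genes were higher and 8.71% lower in this last pair, and in the first pair 4.72% and 3.46%. At a lower limit of 0.3, 2 factors were higher and 6 lower in the first pair, beside 8.43% and 17.6% of genes, 3 and 4 in the second, beside 9.12% and 8.27%, and 3 and 1 in the last, beside 24.0% and 13.1%. TMM moved the median log2 ratio of all genes from 0.08 to -0.03 in the last pair. The median log2 ratio of the 8 factors was -0.37, -0.17 and 0.15 in the 3 pairs, beside -0.08, 0.00 and 0.08 over all genes. The comparisons share libraries and are not independent of each other.

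The relatives and partners of these factors, and their targets, were counted by the same rule. Of 12 measured relatives and partners, 6 were higher and 1 lower in the sIL-2 library than in the sIL-2 + IL-21 library (median log2 ratio 0.41, all genes 0.08), among them *Eomes*, the T-bet relative, at 2.15, *Runx1* at 0.98 and *Ikzf3* at 0.89. *Eomes* was at 11.8 CPM with sIL-2, 4.95 CPM with IL-2/21-Trikine and 2.64 CPM in the sIL-2 + IL-21 library. Among 10 measured exhaustion receptors, 7 were lower and 0 higher in the Trikine library than in the sIL-2 library (median -0.63, all genes -0.08), including *Havcr2* at -1.33 and *Pdcd1* at -0.75. Against sIL-2 + IL-21, 4 of these receptors were lower and 1 higher with IL-2/21-Trikine, with a median of 0.12. *Tox* itself was higher with IL-2/21-Trikine by 1.83 relative to sIL-2 + IL-21, and by 0.49 over sIL-2, which is inside the limit of 0.5.

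Of 14 measured effector genes, 6 were lower and 0 higher in the Trikine library than in the sIL-2 library (median -0.48), with *Gzmk* at -2.75 and *Gzma* at -1.84. Relative to sIL-2 + IL-21, 1 of 13 was higher and 4 lower in the Trikine library (median -0.14), and 4 of 14 were higher and 2 lower in the sIL-2 library (median 0.36). Of 13 measured stem and memory genes, 9 were higher and 0 lower in the Trikine library than in the sIL-2 + IL-21 library (median 0.73, all genes 0.00). Over sIL-2 the Trikine library had 3 of 14 stem and memory genes higher and 0 lower (median 0.00), and the sIL-2 library had 6 of 12 higher and 0 lower relative to sIL-2 + IL-21 (median 0.50), so that sIL-2 + IL-21 was the low library. Of 23 measured activation factors, 9 were lower and 1 higher in the Trikine library than in the sIL-2 library (median -0.33), and of 24 measured, 13 were higher and 1 lower in the sIL-2 library relative to sIL-2 + IL-21 (median 0.52). The residency list, which includes the egress receptor *S1pr1*, had 3 of 7 measured genes lower and 0 higher in the Trikine library than in the sIL-2 library, 1 higher and 0 lower relative to sIL-2 + IL-21, and 4 higher and 0 lower for sIL-2 relative to sIL-2 + IL-21. Of 6 measured innate-like genes, 4 were lower and 0 higher in the Trikine library than in the sIL-2 library (median -1.23), while *Ikzf2* had a ratio of 0.41.

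Shares of cells with a UMI were taken after each cell was thinned to 2000 UMIs, which left out 266, 1775 and 364 shallower cells in the order sIL-2, the Trikine, sIL-2 + IL-21. Median UMIs per cell were 12882.5, 10254 and 14055.5 before thinning. *Tox* was found in 6.20% [5.67, 6.78] of cells in the sIL-2 library, 7.99% [7.50, 8.50] with IL-2/21-Trikine and 3.37% [3.02, 3.75] in the sIL-2 + IL-21 library. With all UMIs of a cell they came to 23.6%, 26.1% and 12.2%. *Prdm1* was found in 3.60% [3.19, 4.05], 1.57% [1.35, 1.81] and 3.14% [2.80, 3.51], and in 18.7%, 7.50% and 18.2% without thinning. Both genes kept the order of their CPM.

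*Zeb2* was found in 19.7%, 17.0% and 15.5% of thinned cells, but in 50.5%, 44.3% and 51.5% without thinning, where cells with sIL-2 + IL-21 were the deepest. *Runx3* was found in 26.2%, 24.1% and 31.6% (71.8%, 61.3% and 77.8% without thinning) and *Tbx21* in 13.8%, 9.86% and 13.0% (54.0%, 36.3% and 54.1%). *Id2* was found in 59.4%, 52.7% and 57.5% (90.0%, 80.4% and 88.7%), and *Bhlhe40* in 58.8%, 47.4% and 50.8% (93.4%, 82.4% and 91.9%). *Ikzf2* was found in 12.8% in the sIL-2 library, 16.8% with IL-2/21-Trikine and 14.7% in the sIL-2 + IL-21 library (29.8%, 34.0% and 34.5%), where the last library lay above sIL-2 in share and below it in CPM, so no order of those libraries is read.

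As a check on free RNA, 43 barcodes with at least 5 myeloid UMIs (median 10145 UMIs) were read after the same thinning. *Tox* and *Prdm1* were found in 0 of 43 barcodes (a share of up to 8.22% is allowed by that count), *Ikzf2* in 4.65% [0.568, 15.8], *Tbx21* in 6.98% [1.46, 19.1] and *Runx3* in 20.9% [10.0, 36.0]. Before thinning, the shares of these 5 genes were 18.6%, 20.9%, 20.9%, 37.2% and 51.2% in that order. These intervals hold the share of each of the 5 genes in every library except *Ikzf2* with IL-2/21-Trikine, so the shares cannot be set above a background from these few barcodes, of which 39.5% also carried *Cd3e* after thinning. *Zeb2*, *Id2* and *Bhlhe40* are expressed by myeloid cells and were found in 62.8%, 53.5% and 37.2% of them.

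**Figure D2:**
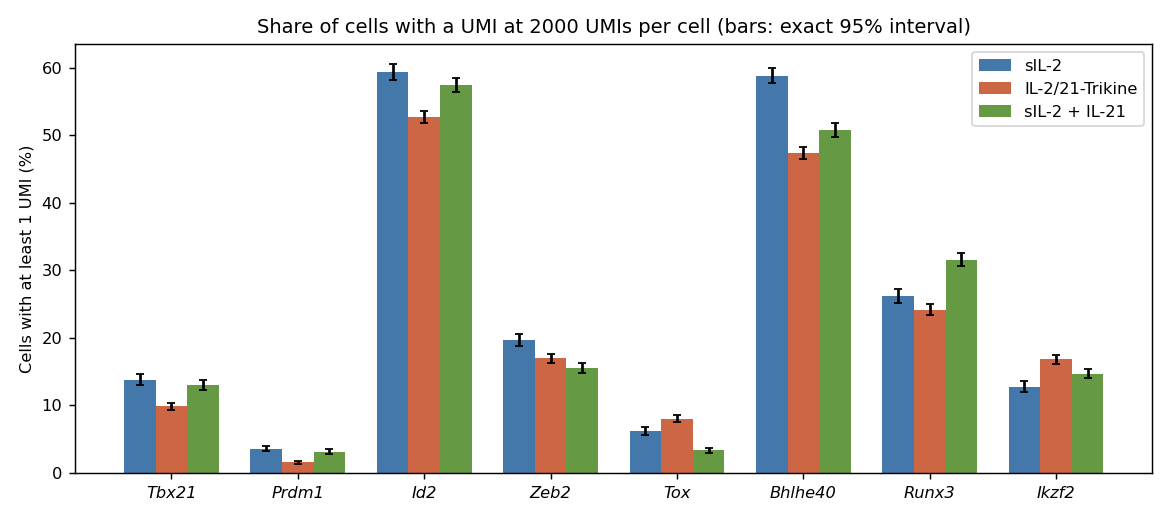
Share of cells with at least 1 UMI of each factor (vertical axis, percent, from 0) after thinning to 2000 UMIs per cell; bars are the 3 libraries and error bars the exact binomial interval at 95%. *Tox* lies at 7.99% with IL-2/21-Trikine and 3.37% in the sIL-2 + IL-21 library, and *Prdm1* at 1.57% with IL-2/21-Trikine against 3.60% with sIL-2.

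Cell classes were set on the thinned counts by genes outside the set. Tcf7-positive cells had at least 1 *Tcf7* UMI, granzyme-positive cells at least 3 UMIs over *Gzmc* to *Gzmg*, and cycling cells at least 3 UMIs over 18 cell cycle genes. Tcf7-positive cells made up 12.5% in the sIL-2 library, 11.8% with IL-2/21-Trikine and 6.15% in the sIL-2 + IL-21 library, granzyme-positive cells 25.0%, 22.9% and 54.1%, and cycling cells 13.4%, 24.5% and 35.6%. Such a class is a range on a count and not a cell type: 4.96% to 10.1% of cells held exactly 1 *Tcf7* UMI. Tcf7-negative means no *Tcf7* UMI among the 2000 kept, and not a cell lacking *Tcf7*. With all UMIs counted, Tcf7-negative cells held 4605, 6052 and 2177 *Tcf7* UMIs, and Tcf7-positive cells 3231, 3828 and 1454, in the same library order. Before thinning, 38.8%, 34.5% and 19.5% of cells had a *Tcf7* UMI. Depth moved with the classes, with a median of 17527 to 22051 UMIs in granzyme-positive cells against 9875.5 to 11378.5 in the others, of 20769.5 to 28985 in cycling cells against 9920 to 12142, and of 7888 to 9918 in Tcf7-positive cells against 11944 to 15149.

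UMIs summed per library and class were tested with edgeR's quasi-likelihood test, with the library as a block and Benjamini-Hochberg adjustment. The 3 libraries differ in treatment, and the test asks for a class difference averaged over them. Whether that difference was alike in all of them was not tested. In Tcf7-positive cells, *Tox* was higher and *Prdm1*, *Id2*, *Zeb2* and *Runx3* were lower, 1 and 4 of the 8 factors, beside 11.2% of 15135 genes higher and 15.5% lower. A single higher gene is close to that background and 4 lower genes are above it, but only 2 genes were lower with thinned sums or in cells outside the other 2 classes. The background also holds genes at far lower levels than the factors, so no excess is read from these counts. *Prdm1* changed by a log2 fold change of -0.57 ± 0.09 (SE; adjusted p = 0.000549), *Id2* by -0.39 ± 0.06 (0.00073), *Zeb2* by -0.35 ± 0.05 (0.00064) and *Runx3* by -0.27 ± 0.07 (0.0153). The *Prdm1* call was lost in edgeR with thinned sums (-0.15, adjusted p = 0.644) and in cells outside the other classes (-0.13, 0.462), and that of *Zeb2* with classes set at 5000 UMIs (-0.16, 0.107). *Runx3* was lost in both of the first settings and without the cells with most UMIs.

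*Tox* was higher in Tcf7-positive cells in every library, by a log2 ratio of 0.42 [0.28, 0.55] in the sIL-2 library, 0.31 [0.20, 0.41] with IL-2/21-Trikine and 1.34 [1.12, 1.55] in the sIL-2 + IL-21 library. The combined log2 fold change was 0.54 ± 0.13 (SE; adjusted p = 0.0107 in edgeR), and 0.316 without the sIL-2 + IL-21 library. In DESeq2 the adjusted p was 0.138. *Runx3* was at 0.03 [-0.03, 0.09] with IL-2/21-Trikine, its call was lost without the sIL-2 library (adjusted p = 0.23 in edgeR), and its value was -0.18 without sIL-2 + IL-21. *Ikzf2* (-0.18 ± 0.07, adjusted p = 0.0761), *Bhlhe40* (0.08 ± 0.05, 0.242) and *Tbx21* (-0.07 ± 0.05, 0.399) did not pass, although *Ikzf2* did in edgeR without the Trikine library (-0.28, adjusted p = 0.00134) or without sIL-2 + IL-21 (-0.18, 0.0384). *Ikzf2* also passed with no filter on low counts, with classes at 1000 UMIs and, with its sign turned, outside the other classes. *Tbx21* passed with classes at 5000 UMIs.

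In granzyme-positive cells, *Ikzf2*, *Prdm1*, *Runx3* and *Id2* were higher and *Tox*, *Zeb2* and *Bhlhe40* lower. These are 4 and 3 of the 8 factors, beside 23.1% of 14892 genes higher and 20.9% lower. The share of higher genes lies above that background and that of lower genes nearer to it. The background also holds genes at far lower levels than the 8 factors, which had mean levels of 14.4 to 580 CPM here. The factors were also chosen with earlier results known, so no excess is read from these counts. Only 2 genes were lower with classes at 1000 UMIs or with a looser limit, where 4 were still higher. *Ikzf2* rose by a log2 fold change of 0.79 ± 0.10 (SE; adjusted p = 0.000528 in edgeR), *Prdm1* by 0.64 ± 0.06 (0.000161), *Runx3* by 0.57 ± 0.06 (0.000249) and *Id2* by 0.55 ± 0.05 (0.00014). With the class set on 3 *Gzmb* UMIs instead, *Ikzf2* was at -0.12 (adjusted p = 0.182). With the class as first defined, all 4 genes were higher in granzyme-positive cells within each of the 3 libraries, with counting intervals above 0.

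*Zeb2* was lower in granzyme-positive cells by -1.03 [-1.07, -0.98] in the sIL-2 library, -0.54 [-0.58, -0.49] with IL-2/21-Trikine and -0.84 [-0.89, -0.80] in the sIL-2 + IL-21 library. The combined log2 fold change was -0.76 ± 0.08 (SE; adjusted p = 0.000249 in edgeR). *Tox* was lower by -0.76 [-0.86, -0.66], -0.36 [-0.43, -0.28] and -1.62 [-1.75, -1.50] in the same order, and by -0.83 ± 0.19 in the combined fit (adjusted p = 0.00928 in edgeR). Leaving out sIL-2 + IL-21 moved that *Tox* value to -0.503. *Bhlhe40* changed by -0.18 ± 0.05 (adjusted p = 0.0306), which was lost without the sIL-2 library (0.142) or without sIL-2 + IL-21 (0.0817). *Tbx21* did not pass (0.11 ± 0.05, adjusted p = 0.0928), but it did in edgeR with the class set on 3 *Gzmb* UMIs and in cells outside the other 2 classes.

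In cycling cells, *Ikzf2* was higher and *Zeb2* and *Bhlhe40* lower, 1 and 2 of the 8 factors, beside 21.4% of 15386 genes higher and 21.6% lower, which leaves these counts near the background. *Zeb2* changed by -0.75 ± 0.07 (SE; adjusted p = 5.1e-05 in edgeR) and *Bhlhe40* by -0.31 ± 0.05 (0.00203), both with the same sign in every library. *Ikzf2* rose by 0.48 ± 0.12 (adjusted p = 0.013 in edgeR, 0.0879 in DESeq2), and its log2 ratio was 0.77 [0.73, 0.82] in the sIL-2 library, 0.67 [0.63, 0.70] with IL-2/21-Trikine and 0.01 [-0.03, 0.05] in the sIL-2 + IL-21 library. Its call was lost without sIL-2 (0.0732) or without IL-2/21-Trikine (0.1), and its value was 0.72 without sIL-2 + IL-21. *Tox*, *Runx3*, *Prdm1*, *Tbx21* and *Id2* did not pass, with adjusted p from 0.0719 to 0.666, although *Runx3* did in edgeR without sIL-2 + IL-21 (0.19, adjusted p = 0.0261). *Runx3* also passed with thinned sums, with classes at 5000 UMIs and with a looser limit, and *Prdm1* with the looser limit. In cells outside the other classes *Tox*, *Tbx21* and *Id2* passed. The median log2 fold change of the 8 factors was -0.23 in Tcf7-positive, 0.33 in granzyme-positive and 0.02 in cycling cells, beside -0.03, 0.01 and -0.02 over all genes.

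These calls rest on the library as a block. Without it, edgeR called 0 of the 8 factors in the Tcf7 and granzyme comparisons, with 1 and 4 at an unadjusted p under 0.05, and only *Zeb2* in the cycling comparison. Over all genes, these fits called 0 higher and 0 lower of 14529 for Tcf7, and 162 and 222 of 14466 for granzyme. For cycling they called 1476 and 662 of 14884. The loss of calls was thus general and not particular to the factors. DESeq2 with the block called 4, 7 and 2 factors in the 3 comparisons. Of 23922 genes it called 1321 higher and 1625 lower for Tcf7, 2546 and 2263 for granzyme, and 2813 and 2593 for cycling.

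**Figure D3:**
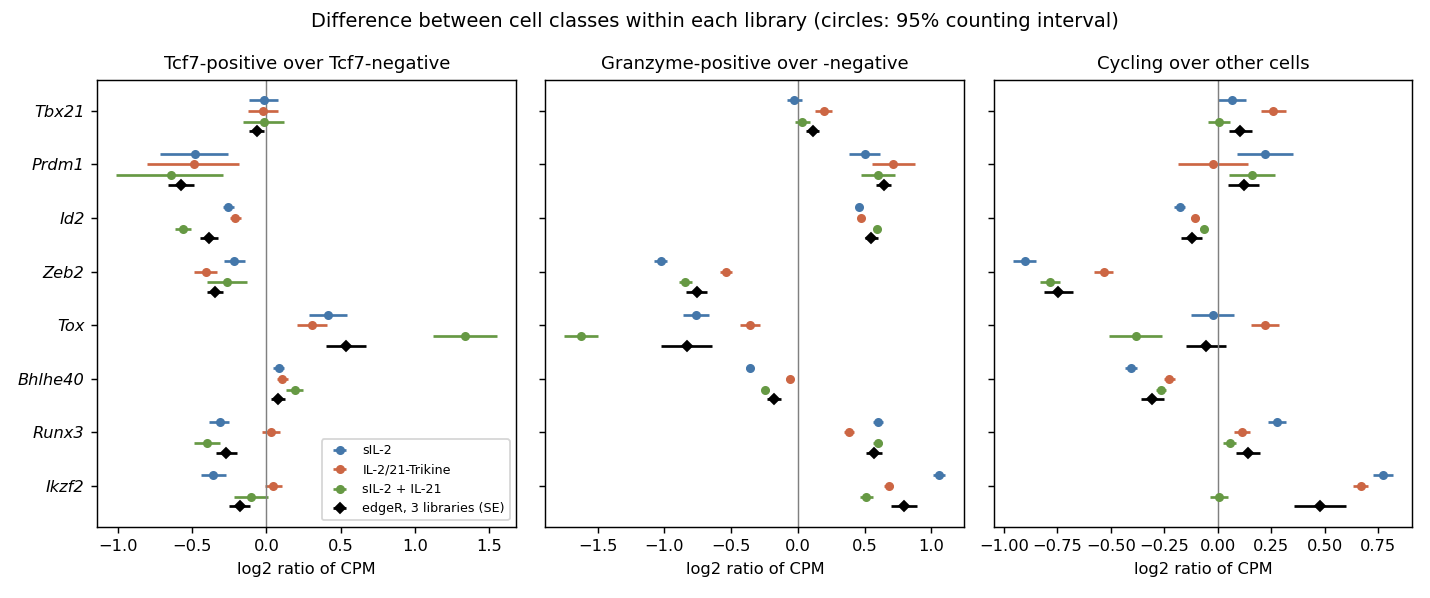
Log2 ratio of CPM between cell classes (horizontal axis) for 8 factors (rows) in 3 panels; circles are the 3 libraries with counting intervals at 95% and black diamonds the edgeR estimate over the libraries with its SE. *Zeb2* lies left of 0 in all 9 library and class combinations, and *Tox* lies right of 0 in Tcf7-positive and left of 0 in granzyme-positive cells of every library.

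Other genes of the same pathways were counted in the same fits. The shares of all genes to set beside these counts, higher and lower, are 11.2% and 15.5% for Tcf7, 23.1% and 20.9% for granzyme, and 21.4% and 21.6% for cycling. They hold for the exhaustion, effector, activation, residency and innate-like lists too. Of 15 tested relatives and partners, 5 were higher and 3 lower in Tcf7-positive cells, and 5 were higher and 7 lower in granzyme-positive cells. *Id3*, the ID2 relative known from memory cells, was at a log2 fold change of 0.83 ± 0.13 (SE; adjusted p = 0.00055 in edgeR) in Tcf7-positive cells and -1.37 ± 0.10 (7.64e-05) in granzyme-positive cells, signs opposite to those of *Id2*. *Runx1* was at -0.76 ± 0.08 (0.000258) in granzyme-positive cells, where *Runx3* rose. Of 14 stem and memory genes, 13 were higher in Tcf7-positive cells, among them *Tcf7*, whose result there was fixed by the class rule. In granzyme-positive cells 12 of the 14 were lower.

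Of 12 exhaustion receptors, 4 were higher and 5 lower in granzyme-positive cells, with *Havcr2* at 1.07 ± 0.05 (SE; adjusted p = 1.64e-05 in edgeR), and 2 were higher and 5 lower in Tcf7-positive cells. *Havcr2* was at -1.33 ± 0.06 (4.96e-08) in Tcf7-positive cells, so that *Tox* had the opposite sign to it in both comparisons. The list was mixed in this respect. *Nt5e*, of the same list, was at 1.18 ± 0.14 (0.000101) in Tcf7-positive and -1.39 ± 0.19 (0.00087) in granzyme-positive cells, the same signs as *Tox*. Effector genes split, with 4 higher and 6 lower of 15 in granzyme-positive cells, and *Prf1* at 2.27 ± 0.06 (1.32e-06). Of 24 activation factors, 16 were lower and 2 higher in granzyme-positive cells. The residency list was lower for 8 of 8 in cycling cells, *S1pr1*, which lets cells leave tissue, included (-0.97 ± 0.06, adjusted p = 6.38e-06 in edgeR), and of 9 innate-like genes 5 were higher and 3 lower in granzyme-positive cells.

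The classes overlapped, so cells were also split by all 3 at once, and the 22 groups with at least 50 cells were read as a description. *Zeb2* was highest in cells outside all 3 classes in each library, at 219 CPM with sIL-2, 155 CPM with IL-2/21-Trikine and 165 CPM in the sIL-2 + IL-21 library. Cells that were both granzyme-positive and cycling, and Tcf7-negative, had 70.6, 79.6 and 61.6 CPM in that order. Restricting the Tcf7 comparison to cells outside the other classes gave *Zeb2* a log2 fold change of -0.84 (adjusted p = 4.23e-07 in edgeR), against -0.35 over all cells.

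With sIL-2 + IL-21, *Tox* was at 36.5 CPM in cells that were Tcf7-positive only, 21.0 CPM in cells of no class, 9.26 CPM in cells that were granzyme-positive only and 6.61 CPM in granzyme-positive cycling cells. With IL-2/21-Trikine these groups had 54.9, 42.8, 36.8 and 38.3 CPM, a narrower range. In cells of no class, *Ikzf2* had 71.7 CPM in the sIL-2 library, 72.6 CPM in the sIL-2 + IL-21 library and 101 CPM in the Trikine library. In cells that were granzyme-positive only it was at 170, 133 and 200 CPM in the order sIL-2, sIL-2 + IL-21, the Trikine. Within the Tcf7 comparison, *Ikzf2* turned to 0.16 (adjusted p = 0.0448 in edgeR) once cells of the other classes were left out.

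**Figure D4:**
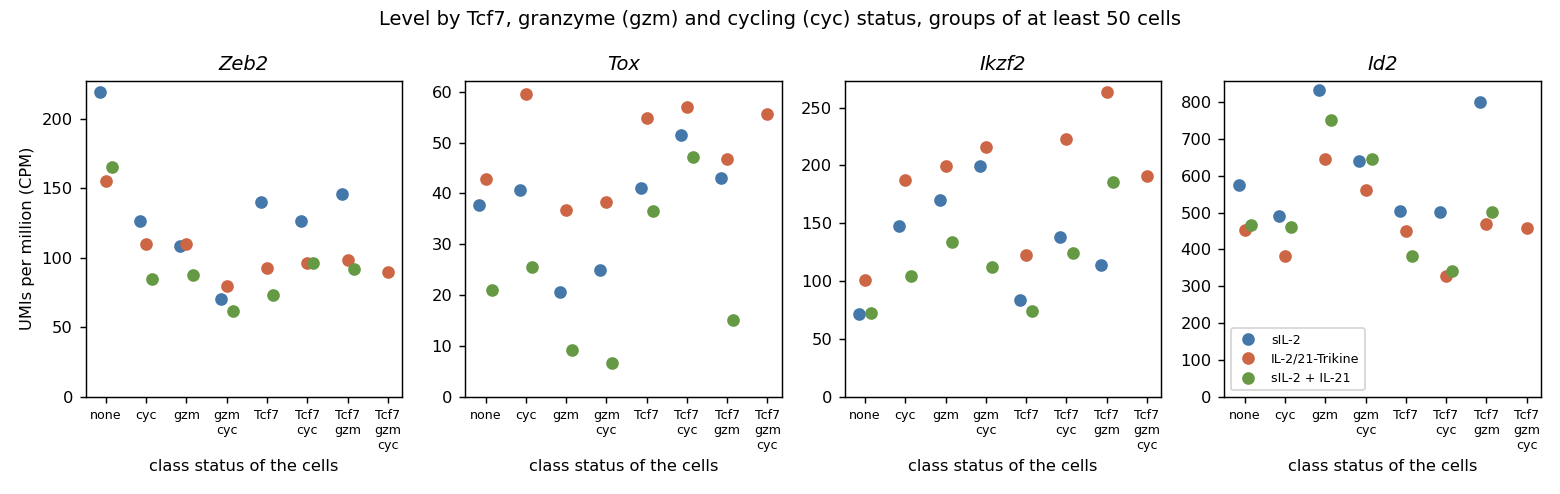
Level of 4 factors in CPM (vertical axis, from 0) by Tcf7, granzyme and cycling status of the cells (horizontal axis, none means outside all 3 classes); points are the 3 libraries, for groups of at least 50 cells, without error bars. *Zeb2* is highest in cells of no class, at 155 to 219 CPM, and *Tox* reaches its lowest value, 6.61 CPM, in granzyme-positive cycling cells with sIL-2 + IL-21.

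Over these 22 groups, which share libraries and differ in depth, log2(CPM + 5) of pairs of factors was correlated as a description. *Id2* and *Runx3* had a Pearson r of 0.74, *Zeb2* and *Bhlhe40* of 0.66, *Tox* and *Runx3* of -0.75 and *Tox* and *Prdm1* of -0.60. Among 5523 genes of at least 20 CPM, those most like each factor over the same groups were *Lcp1* (r 0.84) and *Trabd* (0.82) for *Tbx21*, *Araf* (0.86) for *Prdm1*, and *Aldoa* (0.96) and *Slc2a3* (0.92) for *Id2*. For *Zeb2* they were *Stat5a* (0.92) and *Hivep3* (0.91), for *Tox* *Heg1* (0.88) and *Zbtb20* (0.85), and for *Bhlhe40* *Sidt2* (0.97) and *Ubl3* (0.94). For *Runx3* they were *Card19* (0.92) and *Reep5* (0.91), and for *Ikzf2* *Ifi27* (0.90) and *Tmsb10* (0.81).

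Within cells, a thinned cell held UMIs of 2.00 of the factors on average in the sIL-2 library, 1.77 with IL-2/21-Trikine and 1.90 in the sIL-2 + IL-21 library. The number of cells with both genes of a pair was set against the number expected if the genes were independent. *Tox* and *Ikzf2* shared cells most, at 1.55 times the expected number in the sIL-2 library, 1.69 with IL-2/21-Trikine and 1.58 in the sIL-2 + IL-21 library. *Prdm1* shared cells with *Id2* at 1.22, 1.19 and 1.21 times, and with *Runx3* at 1.17, 1.28 and 1.25 times. For *Id2* the interval included 1 in the Trikine library [0.977, 1.43]. For *Runx3* it included 1 in the sIL-2 library [0.934, 1.45] and in the Trikine library [0.968, 1.66]. The remaining intervals of these pairs lay above 1. *Zeb2* and *Runx3* shared fewer, at 0.86 [0.770, 0.958], 0.846 [0.765, 0.933] and 0.908 [0.823, 0.999] times. *Prdm1* and *Zeb2* were at 0.715 [0.506, 0.981], 0.749 [0.475, 1.12] and 0.914 [0.659, 1.24] times, where only the interval with sIL-2 left out 1. These ratios are descriptions of sparse counts at 2000 UMIs.

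**Figure D5:**
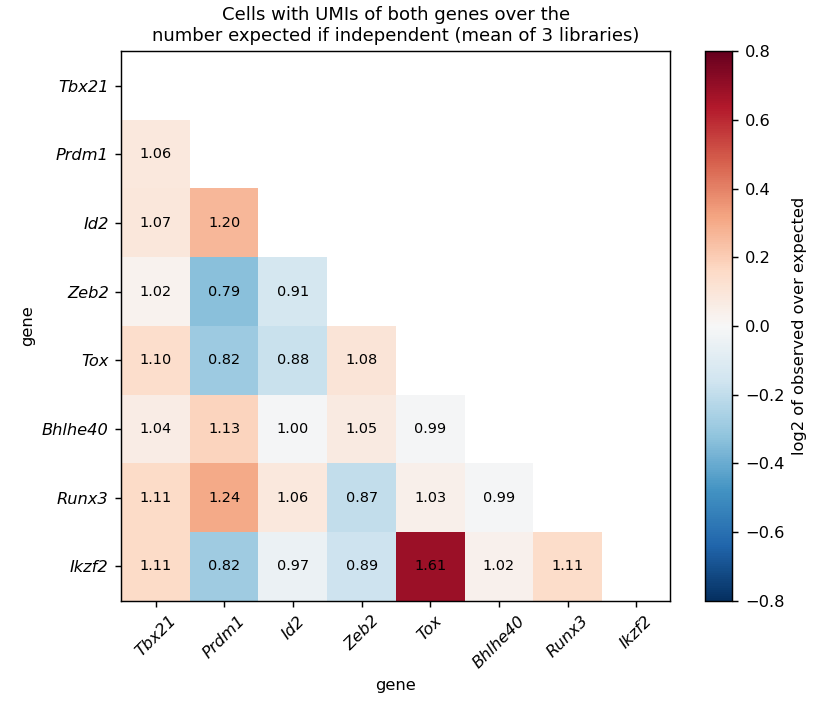
Number of thinned cells with UMIs of both genes over the number expected if the genes were independent, printed in each square and colored on a log2 scale, as the mean of the 3 libraries; rows and columns are 8 factors. *Tox* with *Ikzf2* has the highest mean, 1.61, and *Prdm1* with *Zeb2* the lowest, 0.793.

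*Ikzf2* was also spread unevenly between cells. Its variance over thinned cells was 2.68 times its mean with sIL-2, 2.75 times with IL-2/21-Trikine and 2.34 times in the sIL-2 + IL-21 library, the highest of the 8 factors in each. It was found in 12.8%, 16.8% and 14.7% of cells, where the same mean spread at random (Poisson) would give 19.6%, 26.1% and 22.0%. *Tbx21* was close to such a spread, with 13.8%, 9.86% and 13.0% found and 14.7%, 10.5% and 13.6% given by a Poisson spread, and a variance of 1.14, 1.17 and 1.12 times the mean. For *Zeb2* the variance was 1.96, 1.68 and 1.53 times the mean. The counting intervals of levels are too narrow for genes spread in this way.

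Cells with at least 3 thinned *Ikzf2* UMIs, a limit set after the values were seen, numbered 151 in the sIL-2 library, 361 with IL-2/21-Trikine and 227 in the sIL-2 + IL-21 library. They held 16.9%, 22.4% and 17.6% of all *Ikzf2* UMIs. Against the other cells, their *Tox* level had a log2 ratio of 0.85 [0.59, 1.09], 1.25 [1.12, 1.38] and 1.45 [1.16, 1.73]. *Klre1*, a killer lectin-like receptor, was at 0.80, 0.62 and 0.75, and *Fcer1g*, a signaling adaptor of innate receptors, at 0.94, 0.31 and 0.60. The other innate-like genes were mixed: *Klra5* was at 0.75, 1.07 and 0.48, but *Tyrobp*, also a signaling adaptor, at 0.41, -2.15 and 1.05, *Klrk1* at 0.09, 0.02 and 0.37 and *Gzma* at -0.0006, -0.13 and 0.12. *Klra7* was at 3.01, -0.90 and 2.69 with intervals more than 1 wide, and *Ncr1* had too few UMIs. *Xcl1* was at -1.77, -0.98 and -1.42, and *Gzmb* at -0.49, -0.43 and -0.67, in the same order of libraries.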

How the data were processed

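The 3 deposited matrices hold UMI counts of each gene in each cell as the authors obtained them, made with Cell Ranger 9.0.0 per the file headers, without normalization. The methods name a GRCm39 reference and the submitters' processing notes list mm10, so gene positions and promoters here come from a GRCm38 annotation and are used only to locate genes. Cells with 500 to 120000 UMIs and at most 20% mitochondrial UMIs were kept, as in the methods. Depth was 130200802 to 168041089 UMIs per library. Cells were thinned to 2000 UMIs with a fixed seed for shares and classes. Scrublet's own threshold marked almost no cell and was not used, so doublets were not removed, and the 10% of cells with highest score were left out only as an alternative. Libraries were compared by log2 ratios of CPM with exact conditional binomial intervals, levels had exact Poisson intervals and shares Clopper-Pearson intervals. Class sums were tested with edgeR 4.0.16 (TMM, filterByExpr, glmQLFTest, library as block, adjusted p under 0.05 over all genes tested), with DESeq2 1.42.0 as an alternative, in R 4.3.3. The rest ran in Python 3.11.15 (scanpy 1.11.5, pandas 2.3.3, scipy 1.17.1, numpy 2.4.6, matplotlib 3.10.9). The library ratios and the class test were also run on simulated data, whose outcomes are not reported here, so no error rate is claimed.

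Named genes were the 9 factors, up to 4 genes with the largest change per related list and comparison, and the 2 genes most like each factor. A few of these are not reported here. The genes given beside *Tox* in cells rich in *Ikzf2* (the innate-like list and *Gzmb*) were chosen after their values were seen. The factors and lists were chosen with earlier results of these data known. Alternatives covered scaling, cell limits, doublet score, weight of cells, class limits, depth, library block and leaving out a library. Leaving out shared barcodes, and leaving out myeloid-marker and melanoma-marker barcodes in the class tests, were chosen after seeing the data.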

Additional observations from a re-analysis of the deposited data

Results flagged for a closer look

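*Tox* in cycling against other cells moved in opposite directions in the libraries. It was higher in cycling cells with IL-2/21-Trikine, at a log2 ratio of 0.22 [0.15, 0.29], and lower with sIL-2 + IL-21, at -0.38 [-0.51, -0.26], with -0.02 [-0.13, 0.08] for sIL-2. With 1 library per condition the difference between the libraries was not tested. Granzyme-positive cells made up 41.4% of cycling cells with IL-2/21-Trikine and 70.5% in the sIL-2 + IL-21 library, and their part in this difference was not tested. Among cells outside the Tcf7 and granzyme classes, the cycling and other groups had 59.5 and 42.8 CPM of *Tox* with IL-2/21-Trikine. In the sIL-2 + IL-21 library these groups had 25.6 and 21.0 CPM. Granzyme-positive, Tcf7-negative cells had 38.3 CPM when cycling and 36.8 CPM when not, with IL-2/21-Trikine. With sIL-2 + IL-21 they had 6.61 and 9.26 CPM in that order.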

How the results depend on the processing

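Treatments could not be compared in pairs because each has 1 library, whereas the class tests paired the classes of a library through the block. For IL-2/21-Trikine over sIL-2, 1 factor, *Prdm1*, was past a log2 ratio of 0.5. With median-ratio size factors there were 2 (*Tox* added), and with TMM-scaled totals 3 (*Tox* and *Ikzf2* added). Without the 10% of cells with most UMIs there were 3 (*Tbx21* and *Bhlhe40* added). With each cell weighted equally there were 4 (*Tbx21*, *Tox* and *Ikzf2* added). In these settings, in the order given, 3.20%, 4.72%, 3.50% and 4.17% of all genes were higher and 4.94%, 3.46%, 6.64% and 5.19% lower. At a log2 ratio of 0.3 the counts were 8, 7 and 4 in the 3 pairs, where they were 1, 4 and 2, and with libraries standardized to the same class makeup sIL-2 over sIL-2 + IL-21 had 1. With that class makeup, 3.66% of all genes were higher and 0.947% lower in this pair. Over all alternatives these counts moved in 8 cases and stayed within 1.5 times in 28, and the class counts in 6 and 39. The 6 were, without the library block, 0 in the Tcf7, 0 in the granzyme and 1 in the cycling comparison, 3 for Tcf7 with thinned sums, and 5 with a looser limit and 6 outside the other classes for cycling. Over all genes, the last 3 of these fits called 849 higher and 909 lower of 11363, 3332 and 2814 of 14940, and 3225 and 3202 of 13400. Leaving out each library in turn gave 4 to 6, 6 to 7 and 2 to 4 calls. Of 14565 to 15054 genes, these fits called 899 to 1681 higher and 862 to 2039 lower for Tcf7. For granzyme they called 2571 to 3211 and 2368 to 2702, and for cycling 2461 to 3395 and 2163 to 3049. These signs turned, and the cause was not tested: in the Tcf7 comparison *Tbx21* (0.0116, thinned sums), *Bhlhe40* (-0.0082) and *Ikzf2* (0.16, both outside the other classes), in the granzyme comparison *Ikzf2* (-0.12, 3 *Gzmb* UMIs), and in the cycling comparison *Tbx21* (-0.0058, thinned sums) and *Tox*. *Tox* in cycling cells was at 0.0305 without the library block, 0.0155 with thinned sums, 0.0689 with classes at 1000 UMIs, 0.13 with a stricter limit, 0.0848 without the cells with most UMIs, 0.26 (adjusted p = 0.0109 in edgeR) outside the other classes and between -0.1897 and 0.1062 with a library left out. Levels of the rarest factor, *Prdm1*, and of *Tox2* are limited by depth.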
